A study of Mus musculus with 13 samples.

Results

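DNA methylation in the mammalian oocyte is set up, copied, removed and protected by a small group of proteins, and the transcripts of 10 of them are described here across oocyte maturation and across loss of the long noncoding RNA Sirena1. The group is a list of gene symbols. It holds the maintenance methyltransferase Dnmt1 and its recruiter Uhrf1, the de novo enzymes Dnmt3a and Dnmt3b with their cofactor Dnmt3l, the oxidases Tet1, Tet2 and Tet3, and the imprint protection factors Dppa3 and Zfp57. All 10 symbols matched a gene among the 54232 in the deposited count table, and all 10 passed the filter on low counts that left 20143 genes for testing.

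RNA was sequenced from 13 pools of 25 cells each. The groups were metaphase II (MII) eggs of Sirena1 Null females (n = 4), MII eggs of wild-type (WT) females (n = 3), germinal vesicle (GV) oocytes of Null females (n = 3) and GV oocytes of WT females (n = 3). GV oocytes are fully grown and still arrested in the first meiotic prophase, and were held there with the phosphodiesterase inhibitor IBMX, whereas MII eggs were collected after an injection of chorionic gonadotropin and are arrested in the second meiotic metaphase. In Null mice the promoter of the lncRNA was removed with Cas9 and heterozygotes were crossed to give Sirena1-/- animals. The strain label of all 4 groups is C57BL6/J, while the protocol names C57Bl6/J or C57BL/6NCrl donors and back-crosses to C57BL/6NCrl, so a difference of substrain between genotypes cannot be told apart from the deletion. The age of the females and the number of founders are not given by the labels, nor do they say whether the pools of a group came from separate females, so the spread between libraries may be partly technical.

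Total counts per library ran from 30867614 to 41285507, at which a count of 3 corresponds to 0.0727 to 0.0972 CPM, counts scaled to library size. The lowest count of any of the 10 genes in any library was 262 and the highest was 137061. The deleted RNA, listed as C86187, reached 41.3 ± 4.41 CPM in MII Null eggs (SD, n = 4), 4519 ± 221 CPM in MII WT eggs, 24.8 ± 1.58 CPM in GV Null oocytes and 3006 ± 90.2 CPM in GV WT oocytes (SD, n = 3 each), so the libraries of each genotype matched their label. A list of 14 oocyte genes summed to 11602 to 13120 CPM in MII Null, 11436 to 12831 CPM in MII WT, 13867 to 15265 CPM in GV Null and 13395 to 14801 CPM in GV WT libraries. Among 23 markers of the somatic follicle cells around the oocyte (cumulus and granulosa), none was at 0 in every library, and Serpine2, Nr5a2 and Cyp19a1 reached means of 241, 60.5 and 36.5 CPM even in MII WT eggs. The summed level of all 23 was 369 to 383 CPM in MII Null, 348 to 360 CPM in MII WT, 297 CPM in GV Null replicate 1, 895 CPM in GV Null replicate 2, 473 CPM in GV Null replicate 3 and 279 to 309 CPM in GV WT libraries. The sum was also taken over the 19 markers under 3 CPM in MII WT eggs, a subset chosen after seeing the values. It was 6.06, 5.19, 6.61 and 20.5 CPM in MII Null replicates 1 to 4 and 6.77 to 8.07 CPM in MII WT libraries. MII Null replicate 4 was thus the highest MII library. This sum was 19.9, 567 and 176 CPM in GV Null replicates 1 to 3 and 16.2 to 46.5 CPM in GV WT libraries. GV Null replicates 2 and 3 therefore stand apart, and where a call on GV Null libraries is lost, or its value moves by over 1.5 times, with replicate 1 as the lone GV Null library, that value is given beside it. Of 6 blood and immune cell genes the sum was 2.28 to 4.10 CPM in MII Null, 2.41 to 3.11 CPM in MII WT, 2.01 to 11.6 CPM in GV Null and 1.37 to 2.33 CPM in GV WT libraries.

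As background, oocytes lay down methylation during growth, when Dnmt3a and its catalytically inactive partner Dnmt3l methylate transcribed gene bodies and the imprinting control regions inherited through the egg. Dnmt1 copies methylation onto the new strand after replication, and Uhrf1 brings it there by binding hemimethylated DNA. The Tet enzymes oxidise 5-methylcytosine, and Tet3, the form known for its abundance in the egg, acts on the paternal genome after fertilisation. Dppa3 (also called Stella or PGC7) shields the maternal genome from that oxidation and holds Uhrf1 in the cytoplasm of the oocyte. Zfp57, a zinc finger protein, binds methylated imprinting control regions in the embryo and recruits Trim28.

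The 10 genes lie on 7 chromosomes of build GRCm38.p6, per the RefSeq table. Dnmt1 spans chr9:20907206-20959888 on the minus strand and Uhrf1 chr17:56303337-56323486 on the plus strand. The de novo genes span chr12:3801559-3914443 (Dnmt3a), chr2:153649411-153687730 (Dnmt3b) and chr10:78042287-78063622 (Dnmt3l), all on the plus strand. The Tet genes span chr10:62804570-62887469 (Tet1), chr3:133463677-133545136 (Tet2) and chr6:83362373-83457208 (Tet3), all on the minus strand. Dppa3 spans chr6:122626424-122630271, and Zfp57 spans chr17:37001163-37010729 on the plus strand.

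RefSeq promoter windows of 300 bases, from 250 before to 50 after an annotated start, were found for 9 of the 10 genes, 18 windows in all, and Dppa3 had no entry. Of them 5 are printed below, from the genes whose transcript level changed most between the stages. CG pairs are the substrate of these enzymes. Mouse oocytes are known to transcribe Dnmt1 from a start upstream of the somatic one, but the windows were not assigned to either start. The Dnmt1 windows printed are therefore not to be read as an oocyte and a somatic promoter. The windows read 5′ to 3′ on the strand of the gene, with every CG pair in capitals. CG is its own reverse complement, so both strands hold the same pairs, and no other motif was searched.
Dnmt1, upstream start, chr9:20959839-20960138, minus strand: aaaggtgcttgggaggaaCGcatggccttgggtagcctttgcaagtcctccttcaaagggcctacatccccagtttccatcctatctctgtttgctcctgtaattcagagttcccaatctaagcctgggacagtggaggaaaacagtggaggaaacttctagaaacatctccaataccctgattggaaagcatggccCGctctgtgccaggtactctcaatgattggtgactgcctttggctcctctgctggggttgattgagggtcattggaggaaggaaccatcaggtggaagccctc
Dnmt1, downstream start, chr9:20952574-20952873, minus strand: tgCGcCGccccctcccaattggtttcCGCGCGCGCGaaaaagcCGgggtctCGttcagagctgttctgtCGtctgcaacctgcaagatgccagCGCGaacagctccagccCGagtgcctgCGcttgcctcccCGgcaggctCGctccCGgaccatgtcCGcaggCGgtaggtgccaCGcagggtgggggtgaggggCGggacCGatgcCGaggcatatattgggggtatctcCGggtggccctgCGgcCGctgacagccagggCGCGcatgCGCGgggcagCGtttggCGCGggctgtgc
Dnmt3l, chr10:78042037-78042336, plus strand: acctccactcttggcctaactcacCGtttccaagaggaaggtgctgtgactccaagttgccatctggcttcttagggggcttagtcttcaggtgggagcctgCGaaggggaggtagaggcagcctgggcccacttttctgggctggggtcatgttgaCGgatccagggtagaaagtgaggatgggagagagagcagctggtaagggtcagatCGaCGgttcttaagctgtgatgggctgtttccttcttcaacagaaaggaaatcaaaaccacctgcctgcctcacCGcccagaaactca
Zfp57, chr17:37000913-37001212, plus strand: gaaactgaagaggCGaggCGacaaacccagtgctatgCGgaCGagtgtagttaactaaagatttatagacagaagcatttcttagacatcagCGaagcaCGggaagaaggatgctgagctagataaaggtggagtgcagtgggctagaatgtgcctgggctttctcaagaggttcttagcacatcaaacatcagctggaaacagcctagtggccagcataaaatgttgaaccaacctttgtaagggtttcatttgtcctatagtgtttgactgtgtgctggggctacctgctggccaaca
Tet3, chr6:83441629-83441928, minus strand: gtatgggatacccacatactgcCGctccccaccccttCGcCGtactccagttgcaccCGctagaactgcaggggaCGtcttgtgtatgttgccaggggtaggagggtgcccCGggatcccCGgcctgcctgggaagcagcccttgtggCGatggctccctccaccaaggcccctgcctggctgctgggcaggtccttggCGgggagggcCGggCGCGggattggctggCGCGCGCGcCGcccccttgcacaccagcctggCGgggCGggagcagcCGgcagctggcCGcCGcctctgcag

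The number of CG pairs differed widely among these windows. The upstream Dnmt1 window held 2, a number that 85.9% of all 32851 RefSeq windows reached or passed, and the downstream one printed held 33, reached or passed by 8.56%. A Dnmt1 window between them, chr9:20952930-20953229, held 12. The Dnmt3l window printed held 6 and its other windows held 4 and 3, the printed Zfp57 window held 6 and its others 4 and 9, and the Tet3 window held 22. Across all windows the median was 7, with quartiles of 3 and 20, and 94.6% held at least 1 pair. Among the genes not printed, Tet2 had 57 CG pairs, a number reached or passed by 0.152% of windows, Dnmt3a had 46, 47 and 18, Dnmt3b had 30, Tet1 had 17 and Uhrf1 had 12 and 33. These counts describe the letters. Reads were counted per gene, so the table does not show which start a transcript used.

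The comparison of MII eggs with GV oocytes of the same genotype addresses how the transcripts change during maturation. In both genotypes Dnmt1, Dnmt3l and Dppa3 fell and Zfp57 and Tet3 rose, while Tet1 and Tet2 did not pass the test. Uhrf1 rose by a smaller amount in both, and Dnmt3a and Dnmt3b passed in Null alone, a contrast whose own test, given below, did not pass. In Null, 8 of the 10 genes passed at an adjusted p under 0.05 (edgeR quasi-likelihood test, Benjamini-Hochberg over 20143 genes), 5 higher and 3 lower in MII eggs. Over all genes 49.0% passed in Null, 22.1% higher and 26.9% lower. In WT, 6 of the 10 passed, 3 higher and 3 lower, beside 42.7% of all genes, with 19.9% higher and 22.8% lower. Genes of at least 5 CPM, among which all 10 members fall, passed in 62.4% of cases in Null and 57.3% in WT, so a call is common and the size of the changes carries the description. A level here is a share of the counts of a library, since no spike-in count was available, so fewer transcripts per cell and a larger total of other transcripts cannot be told apart. In pools, fewer cells that carry a transcript and less of it per cell cannot be told apart either. MII Null and MII WT eggs were set against separate GV libraries, so the comparisons share no sample, but all 13 libraries share 1 estimate of each gene's spread.

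**Figure D1:**
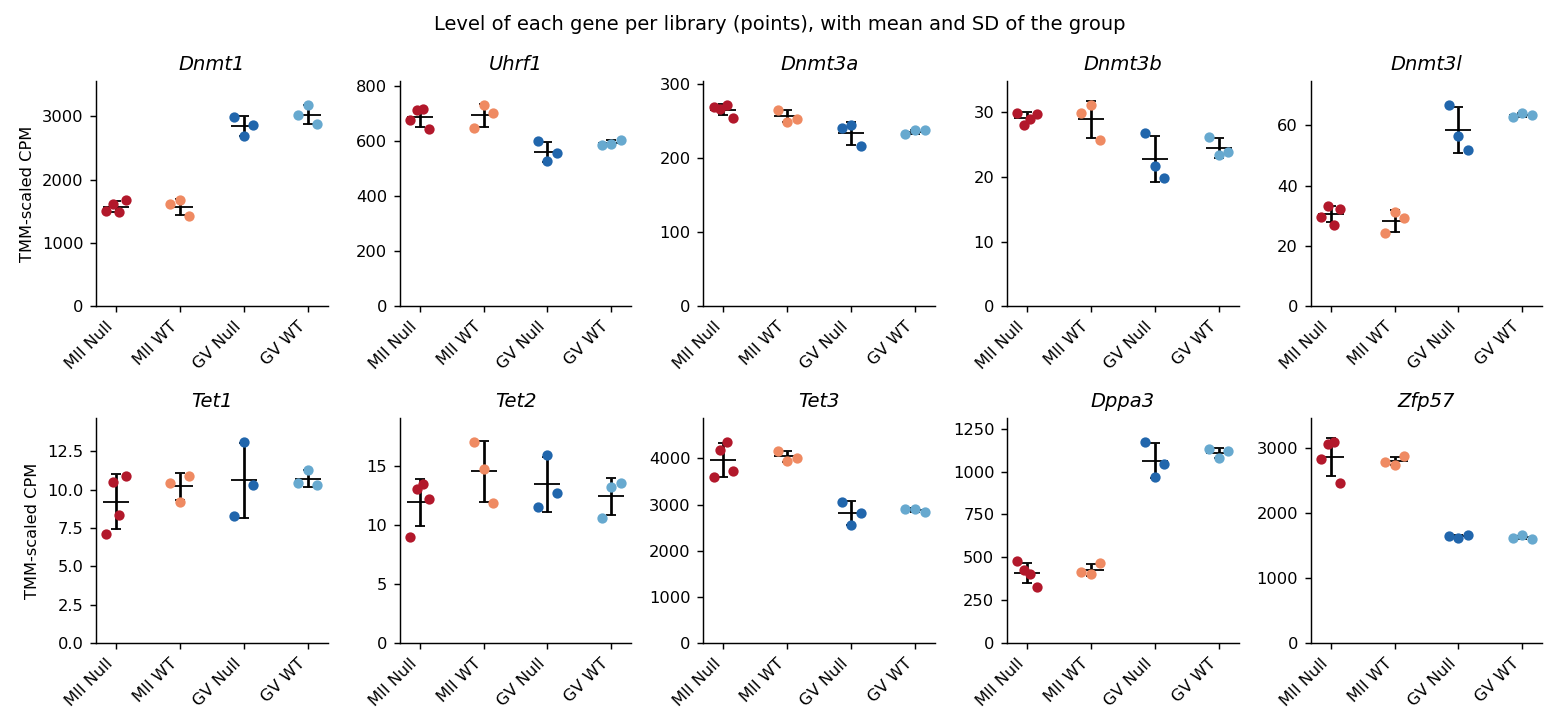
Level of each gene (TMM-scaled CPM, linear axis from 0) in every library of MII Null, MII WT, GV Null and GV WT, with points for libraries and black bars for the group mean and SD. The MII libraries lie below all GV libraries for Dnmt1, Dnmt3l and Dppa3 and above all of them for Zfp57 and Tet3. Null and WT libraries of a stage overlap in every panel. Neither pattern was counted over all genes.

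Dnmt1, the enzyme that keeps methylation through replication, fell to about the same level in both genotypes. In Null it had 1497, 1607, 1495 and 1674 CPM in MII eggs, against 2985, 2680.3 and 2861 CPM in GV oocytes. In WT it had 1613, 1672 and 1419 CPM in MII eggs, against 3023, 3172 and 2877 CPM in GV oocytes. No MII library reached the lowest GV library. The log2 fold change was -0.86 in Null (SE 0.07, adjusted p = 2.63e-08), 0.552 times the GV level, and -0.95 in WT (SE 0.08, adjusted p = 2.55e-08), 0.518 times the GV level.

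Uhrf1, which binds hemimethylated sites and recruits Dnmt1, moved the other way and by less. Null eggs at MII had 674, 711, 716 and 641 CPM, against 598, 526 and 555 CPM in GV oocytes. Among WT samples, MII eggs had 647, 729 and 702 CPM, against 583, 587 and 603 CPM in GV oocytes. The stages did not overlap in either genotype, and the closest libraries were 641 and 598 CPM in Null and 647 and 603 CPM in WT. The Uhrf1 log2 fold change was 0.29 in Null (SE 0.07, adjusted p = 0.00161) and 0.23 in WT (SE 0.07, adjusted p = 0.0162). The WT call is a close one and was lost on leaving out 1 library in 6 cases, namely MII Null replicates 2 and 3, MII WT replicates 2 and 3 and GV WT replicates 1 and 2, with adjusted p values of 0.0532 to 0.0836. With GV Null replicate 1 as the lone GV Null library the Null value was 0.20 (adjusted p = 0.116). With a minimum of 5 CPM, which shifts the median of the genes shared by both fits down by about the same amount, both calls were lost, at 0.14 in Null (adjusted p = 0.0541) and 0.09 in WT (adjusted p = 0.237).

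Dnmt3l, the cofactor that stimulates Dnmt3a in oocytes, fell by the largest amount among the 4 Dnmt genes. MII eggs of Null had 29.7, 33.3, 27.1 and 32.3 CPM, against 66.7, 56.6 and 51.9 CPM in GV oocytes. MII eggs of WT had 24.3, 31.3 and 29.3 CPM, against 62.9, 64.2 and 63.3 CPM in GV oocytes. Every MII library lay well below every GV library. On the log2 scale the change was -0.93 in Null (SE 0.10, adjusted p = 6.66e-07) and -1.17 in WT (SE 0.11, adjusted p = 1.39e-07). On this scale the difference between the genotypes was 0.23 and did not pass (adjusted p = 0.999).

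Dnmt3a, the enzyme that sets maternal imprints, changed little. Null MII eggs gave 268, 266, 271 and 254 CPM, against 240, 244 and 216 CPM in GV oocytes. WT MII eggs gave 265, 249 and 253 CPM, against 232, 238 and 237 CPM in GV oocytes. The stages did not overlap in either genotype. The log2 fold change of 0.18 in Null passed (SE 0.06, adjusted p = 0.0223), and that of 0.12 in WT did not (SE 0.07, adjusted p = 0.165, 95% interval -0.02 to 0.26). The Null call was lost without GV Null replicate 3 or without MII Null replicate 1, 2 or 3, with adjusted p values of 0.0843 to 0.133, and with GV Null replicate 1 as the lone GV Null library (0.14, adjusted p = 0.237). It was also lost with a minimum of 5 CPM (0.03, adjusted p = 0.722), with no filter (adjusted p = 0.0686) and with only the groups compared in the fit (adjusted p = 0.0974).

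Dnmt3b, the other de novo enzyme, was measured at 19.8 to 31 CPM. In Null it had 29.8, 27.9, 28.9 and 29.7 CPM in MII eggs, against 26.7, 21.7 and 19.8 CPM in GV oocytes. In WT it had 29.8, 31 and 25.7 CPM in MII eggs, against 26.1, 23.4 and 23.8 CPM in GV oocytes. The stages overlapped in WT and not in Null. The log2 fold change was 0.35 in Null (SE 0.10, adjusted p = 0.00905) and 0.24 in WT (SE 0.11, adjusted p = 0.0935). The Null call was lost without GV Null replicate 3 (0.27, adjusted p = 0.0652) and with GV Null replicate 1 as the lone GV Null library, where the value was 0.13 (adjusted p = 0.55), and with a minimum of 5 CPM (0.20, adjusted p = 0.0999). In WT the gene passed on leaving out MII WT replicate 3 (0.32, adjusted p = 0.0485) or GV Null replicate 1 (0.24, adjusted p = 0.0493).

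Tet3, the oxidase known to act in the zygote, rose in both genotypes. In MII Null libraries the level was 3590.3, 4183, 4355 and 3723 CPM, against 3061, 2552 and 2820.1 CPM in GV oocytes. In MII WT libraries the level was 4167, 3945 and 4006 CPM, against 2910.0, 2902 and 2840.4 CPM in GV oocytes. All MII libraries lay above all GV libraries. Tet3 had a log2 fold change of 0.50 in Null (SE 0.08, adjusted p = 4.53e-05), 1.41 times the GV level, and 0.49 in WT (SE 0.08, adjusted p = 0.000123), 1.40 times the GV level.

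Tet1 and Tet2, the oxidases better known from embryonic stem cells and blood, were measured at about 10 CPM and the stages overlapped. Tet1 in Null had 7.08, 10.5, 8.33 and 10.9 CPM in MII eggs, against 8.28, 13.1 and 10.3 CPM in GV oocytes. In WT it had 10.4, 9.17 and 10.9 CPM in MII eggs, against 10.4, 11.3 and 10.3 CPM in GV oocytes. For Tet1 the log2 fold change was -0.20 in Null (SE 0.16, adjusted p = 0.333) and -0.07 in WT (SE 0.17, adjusted p = 0.772), with no direction shared by all libraries. Tet2 in Null had 9, 13, 13.4 and 12.2 CPM in MII eggs, against 11.5, 15.9 and 12.7 CPM in GV oocytes. In WT it had 17, 14.7 and 11.8 CPM in MII eggs, against 10.6, 13.2 and 13.5 CPM in GV oocytes. For Tet2 the log2 fold change was -0.17 in Null (SE 0.16, adjusted p = 0.386) and 0.22 in WT (SE 0.17, adjusted p = 0.317), with 95% intervals of -0.51 to 0.16 and -0.14 to 0.57. These intervals are the widest among the 10 genes together with those of Tet1. With GV Null replicate 1 as the lone GV Null library the Null values were 0.15 for Tet1 and 0.05 for Tet2, above 0 and again not past the threshold (adjusted p = 0.67 and 0.91).

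Dppa3, which protects maternal methylation after fertilisation, had the largest change of the 10 genes. In Null it had 477, 425, 404 and 330 CPM in MII eggs, against 1173, 971 and 1045 CPM in GV oocytes. In WT it had 414, 400 and 466 CPM in MII eggs, against 1132, 1078 and 1119 CPM in GV oocytes. The highest MII library, at 477 CPM, stood below the lowest GV library, at 971 CPM. The log2 fold change was -1.38 in both genotypes, with an SE of 0.10 and an adjusted p of 3.87e-09 in Null and an SE of 0.11 and an adjusted p of 1.44e-08 in WT, and the MII level was 0.385 times the GV level in each.

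An annotated pseudogene, Dppa3-ps, could share reads with Dppa3, since how reads that map to several places were counted is not given. Its level was 27.1 ± 4.49 CPM in MII Null (SD, n = 4), 29.6 ± 1.33 CPM in MII WT, 49.4 ± 4.17 CPM in GV Null and 47.7 ± 4.43 CPM in GV WT (SD, n = 3 each). Its log2 fold change was -0.86 in Null (adjusted p = 4.42e-06) and -0.69 in WT (adjusted p = 0.000141). As a share of the Dppa3 count it held 6.10 to 6.95% in MII Null, 6.67 to 7.12% in MII WT, 4.02 to 5.19% in GV Null and 4.05 to 4.72% in GV WT libraries. With all of these counted reads added, the Dppa3 count would change by at most that share. Reads that map to both genes and were left out of the counting are not covered by it.

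Zfp57, which guards imprints in the embryo, had the largest rise among the 10 genes. MII Null libraries held 2823, 3055, 3089 and 2457 CPM, against 1647, 1619 and 1653 CPM in GV oocytes. MII WT libraries held 2787, 2739 and 2867 CPM, against 1607, 1656 and 1601 CPM in GV oocytes. The GV libraries of both genotypes kept within a narrow band, and every MII library was above it. The change on the log2 scale was 0.80 in Null (SE 0.07, adjusted p = 8.83e-08), 1.74 times the GV level, and 0.79 in WT (SE 0.08, adjusted p = 2.54e-07), 1.73 times the GV level.

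**Figure D2:**
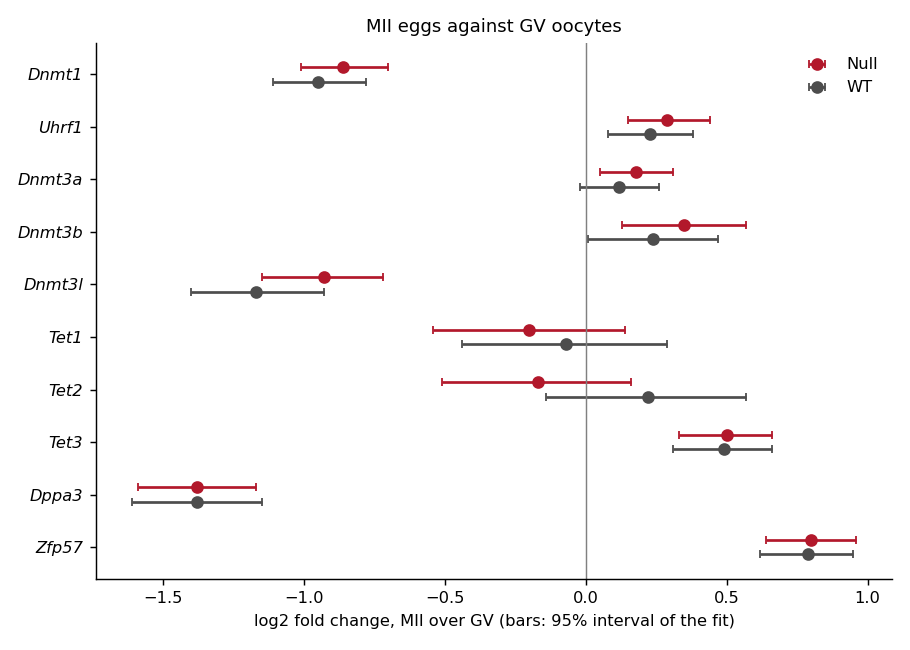
Log2 fold change of MII eggs over GV oocytes for each gene, in Null (red, upper point) and WT (grey, lower point), with the 95% interval of the edgeR fit as bars. Dppa3 lies at -1.38 in both genotypes, Dnmt3l and Dnmt1 between -1.17 and -0.86, and Tet3 and Zfp57 between 0.49 and 0.80, while the Tet1 and Tet2 intervals span 0.

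Where these changes stand among genes of similar detection can be read from the 10307 genes with at least 5 CPM, whose median log2 fold change from GV to MII was 0.14 in both genotypes. Against that background Zfp57 lay above 98.3% of the genes in Null and 98.1% in WT. Tet3 lay above 85.1% in Null and 86.3% in WT. At the other end, Dppa3 lay above 6.71% in Null and 6.95% in WT, Dnmt3l above 10.6% in Null and 8.42% in WT, and Dnmt1 above 11.5% in Null and 10.4% in WT. Uhrf1 lay above 64.0% in Null and 59.0% in WT, Dnmt3b above 70.7% in Null and 59.9% in WT, and Dnmt3a above 53.6% in Null and 48.1% in WT. The summed counts of the 10 genes made up 0.877 to 0.956% of all counts in MII Null, 0.915 to 0.938% in MII WT, 0.977 to 1.03% in GV Null and 0.997 to 1.06% in GV WT libraries.

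The order of the 4 groups within each gene follows from these levels, and genes are not ranked against each other because transcript lengths were not used. For Dnmt1, Dnmt3l and Dppa3 both MII groups lay below both GV groups, and the 2 groups of a stage overlapped. For Uhrf1, Dnmt3a, Tet3 and Zfp57 both MII groups lay above both GV groups, again with overlap between the genotypes of a stage. For Dnmt3b, Tet1 and Tet2 neighbouring groups overlapped and no full order could be given. The share of all genes whose libraries separate by stage, or overlap between genotypes, was not counted. From GV to MII, 62.4% of genes of at least 5 CPM passed in Null and 57.3% in WT. The order by stage is therefore not read as particular to these genes. Relative to the mean, replicate spread was smallest for Dnmt3l in GV WT, with a coefficient of variation of 1.01%, and widest for Tet1 in GV Null, at 23.1%. Zfp57 kept close in GV oocytes, at 1639 ± 18 CPM in GV Null and 1622 ± 30 CPM in GV WT (SD, n = 3 each).

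The comparison of Null with WT at one stage addresses what loss of Sirena1 does to these transcripts. In MII eggs none of the 10 genes passed, beside 0.0546% of all genes. In GV oocytes none passed either, also beside 0.0546% of all genes, which is 11 of 20143 genes at each stage. The difference between the stages, tested as an interaction, called none of the 10 and 0.00496% of all genes. No member had an unadjusted p under 0.05 in any of these 3 tests, and DESeq2 also called none. A share this low in all genes leaves little room for a member to be called, so the intervals carry the result.

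In MII eggs the fitted Null level was 0.819 to 1.08 times the WT level over the 10 genes, and the 95% intervals ran from 0.649 to 1.26 times. The median log2 fold change of Null over WT was -0.01, against 0.01 over all genes, with 5 of 10 above 0. Over genes of at least 5 CPM the median was 0.01 and 53.0% lay above 0. The largest difference was that of Tet2, which averaged 11.9 ± 1.98 CPM in the 4 Null libraries and 14.5 ± 2.58 CPM in the 3 WT libraries (SD). Its log2 fold change was -0.29 (SE 0.16, 95% interval -0.62 to 0.05, adjusted p = 0.827) and the libraries overlapped. Dnmt1 averaged 1569 ± 87.9 CPM in Null eggs, against 1568 ± 133 CPM in WT eggs. The mean of Tet3 was 3963 ± 365 CPM in Null eggs, against 4039.6 ± 115 CPM in WT eggs. Dppa3 stood at 409 ± 60.8 CPM in Null eggs, against 427 ± 34.9 CPM in WT eggs, and Zfp57 at 2856 ± 291 CPM in Null eggs, against 2797 ± 64.6 CPM in WT eggs.

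In GV oocytes the fitted Null level was 0.920 to 1.07 times the WT level, and the 95% intervals ran from 0.768 to 1.37 times. The median log2 fold change of Null over WT was -0.05, against 0.02 over all genes, with 2 of 10 above 0. Over genes of at least 5 CPM the median was -0.02 and 44.4% lay above 0. The smallest adjusted p of the 10 genes was 0.885. Dnmt1 averaged 2842 ± 153 CPM in Null oocytes, against 3024 ± 148 CPM in WT oocytes, and Dnmt3l 58.4 ± 7.57 CPM in Null oocytes, against 63.5 ± 0.643 CPM in WT oocytes (SD, n = 3 each). The Dnmt1 log2 fold change was -0.09 and that of Dnmt3l -0.12. Libraries of both genotypes overlapped for both genes. With replicate 1 as the lone GV Null library, 7 of 10 genes lay above 0 with a median of 0.02. Relative to the mean of the GV WT libraries, the median log2 ratio over the 10 genes was 0.03 in GV Null replicate 1, -0.17 in replicate 2 and -0.08 in replicate 3. Replicates 2 and 3 are those with the high summed level of cumulus genes, 895 and 473 CPM against 279 to 309 CPM in GV WT, and the part of somatic RNA in these ratios was not tested.

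**Figure D3:**
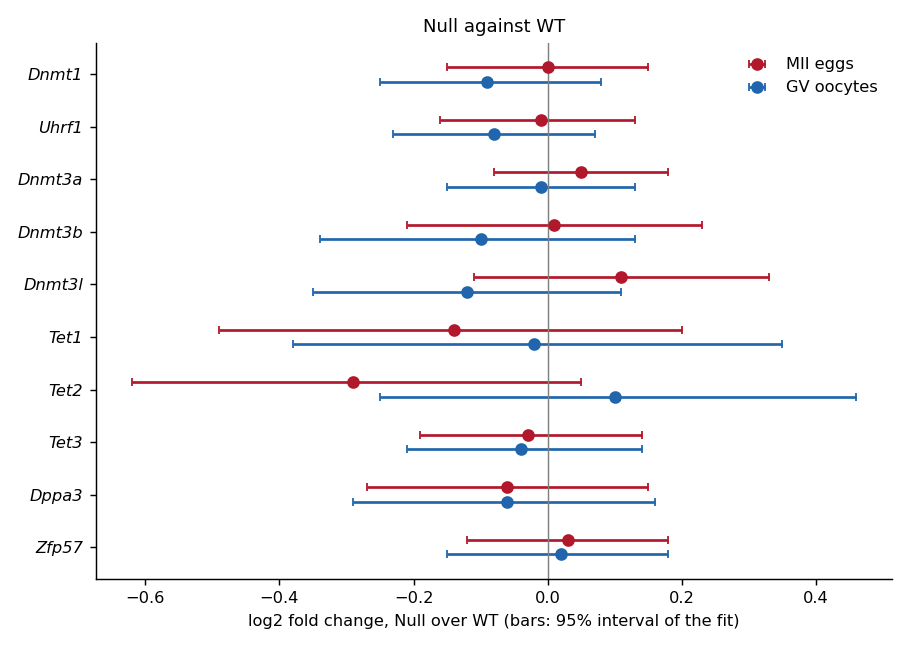
Log2 fold change of Null over WT for each gene in MII eggs (red, upper point) and GV oocytes (blue, lower point), with 95% intervals of the edgeR fit as bars. Every interval spans 0, and the points lie between -0.29 (Tet2 in MII eggs) and 0.11 (Dnmt3l in MII eggs).

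**Figure D4:**
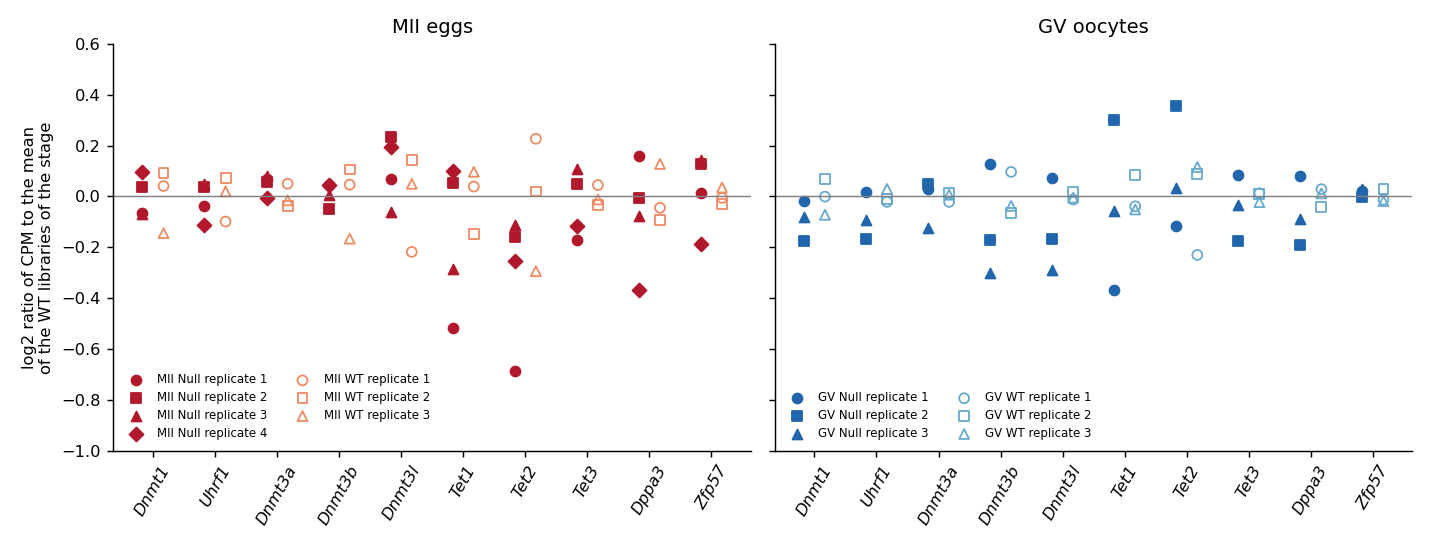
Log2 ratio of the CPM of each library to the mean of the WT libraries of its stage, with MII eggs in the left panel, GV oocytes in the right panel, filled symbols for Null, open symbols for WT and 1 symbol shape per replicate. Null and WT symbols overlap for all 10 genes, and the share of all genes that overlap was not counted. The lowest Tet1 and Tet2 values in MII eggs are those of Null replicate 1. The lowest Dppa3 and Zfp57 values in MII eggs are those of Null replicate 4.

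In the interaction test, which asks whether the Null effect differed between MII eggs and GV oocytes, the log2 difference ran from -0.39 for Tet2 to 0.23 for Dnmt3l. Intervals ran from -0.88 to 0.55, and the smallest adjusted p was 0.999. The MII Null libraries gave no common shift, since their median log2 ratios to the MII WT mean over the 10 genes were -0.01, 0.04, -0.03 and -0.06 in replicates 1 to 4.

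Other annotated genes share a locus or a sequence with a member. Dnmt3c, a rodent copy of Dnmt3b known for male germ cells, was measured at 3.34 ± 0.918 CPM in MII Null (SD, n = 4), 3.07 ± 0.298 CPM in MII WT, 2.97 ± 0.898 CPM in GV Null and 3.19 ± 0.268 CPM in GV WT (SD, n = 3 each), with no call. Dnmt3aos, an antisense transcript inside Dnmt3a at chr12:3859293-3862244, had 13 to 45 counts per library, with a log2 fold change of MII over GV of 1.46 in Null (SE 0.40, adjusted p = 0.00586) and 0.30 in WT (adjusted p = 0.591). The Null call was lost with GV Null replicate 1 as the lone GV Null library (adjusted p = 0.0804). Strand was not given for the counting, so reads of Dnmt3aos and of Dnmt3a cannot be told apart. Aire, whose span overlaps that of Dnmt3l by 1324 bases, averaged 3.64 CPM in MII Null, 3.63 CPM in MII WT, 5.46 CPM in GV Null and 4.77 CPM in GV WT. Its log2 fold change was -0.58 in Null (adjusted p = 0.00334) and -0.39 in WT (adjusted p = 0.0583), and in Null it was -0.39 (adjusted p = 0.213) with the lone GV Null library. The pseudogenes Dnmt3l-ps1 and Dnmt3a-ps1 had at most 1 count per library, and Dnmt3bos and B230319C09Rik, which overlaps Tet3, at most 7.

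The partners of these proteins were taken from a list of 47 names, of which 45 were in the table (Idax and Vprbp are older names of Cxxc4 and Dcaf1, listed as well) and 42 were tested. No partner passed between Null and WT at either stage, beside 0.0546% of all genes at each. An unadjusted p under 0.05 was found for 2 of 42 in MII eggs and 2 in GV oocytes. Over all genes 6.35% had such a p in MII eggs and 6.66% in GV oocytes. From GV to MII in Null, 15 rose and 14 fell (median log2 fold change 0.14, against -0.05 over all genes). In WT, 13 rose and 11 fell (median 0.06, against 0.01). Over genes of at least 5 CPM the median was 0.14 in both genotypes. All genes passed in 49.0% of cases in Null and 42.7% in WT. With GV Null replicate 1 as the lone GV Null library, 4 partners rose and 8 fell in Null, beside 26.1% of all genes called in that fit.

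Among partners that fell in MII eggs, Dmap1, a Dnmt1-binding protein, changed by -2.16 in Null and -2.69 in WT on the log2 scale (adjusted p = 2.07e-11 in Null and 1.22e-11 in WT). Mbd3, a member of the methyl-binding family in the NuRD complex, changed by -1.27 in Null and -1.41 in WT. Dcaf13 changed by -1.15 in Null and -1.42 in WT, and Nlrp14, an oocyte protein that mouse work links to Uhrf1, by -1.16 in Null and -1.19 in WT. Uhrf2, the relative of Uhrf1, changed by -1.01 in Null (adjusted p = 0.0417) and -1.16 in WT (adjusted p = 0.0456), at no more than 3.39 CPM in the higher group. In Null its levels were 0.971, 1.23, 1.59 and 2.95 CPM in MII eggs, against 1.55, 5.69 and 2.94 CPM in GV oocytes. The high GV library is replicate 2, which had the highest sum of cumulus genes. With replicate 1 as the lone GV Null library the Null value was 0.12, and the part of somatic RNA was not tested.

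Among partners that rose, Cxxc1, which binds unmethylated CG and recruits H3K4 methylation, changed by 0.79 in Null and 0.87 in WT (adjusted p = 2.05e-07 in Null and 1.42e-07 in WT). Nsd1, a histone methyltransferase of H3K36, changed by 0.56 in Null and 0.45 in WT, and by 0.31 in Null with the lone GV Null library (adjusted p = 0.0212). Arid4a changed by 0.68 in Null and 0.42 in WT, and Mbd1 by 0.48 in Null and 0.64 in WT. Of the proteins that act with Zfp57, the H3K9 methyltransferase Setdb1 rose by 0.51 in Null (adjusted p = 0.000254) and 0.30 in WT (adjusted p = 0.0228). In Null its levels were 400, 469, 492 and 433 CPM in MII eggs, against 382, 281 and 281 CPM in GV oocytes, and with GV Null replicate 1 alone the call was lost (0.23, adjusted p = 0.0959). Trim28, its corepressor, had 0.16 in Null (adjusted p = 0.066) and 0.22 in WT (adjusted p = 0.0239), and passed in WT alone, with the difference between genotypes at -0.06 (adjusted p = 0.999). Zfp445, a zinc finger protein that shares imprint protection with Zfp57, had 0.20 in Null and 0.09 in WT and passed in neither. Kdm1b, the H3K4 demethylase needed for maternal imprints, had -0.32 in Null (adjusted p = 0.00637) and -0.19 in WT (adjusted p = 0.127), with -0.19 in Null when GV Null replicate 1 stood alone (adjusted p = 0.258).

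**Figure D5:**
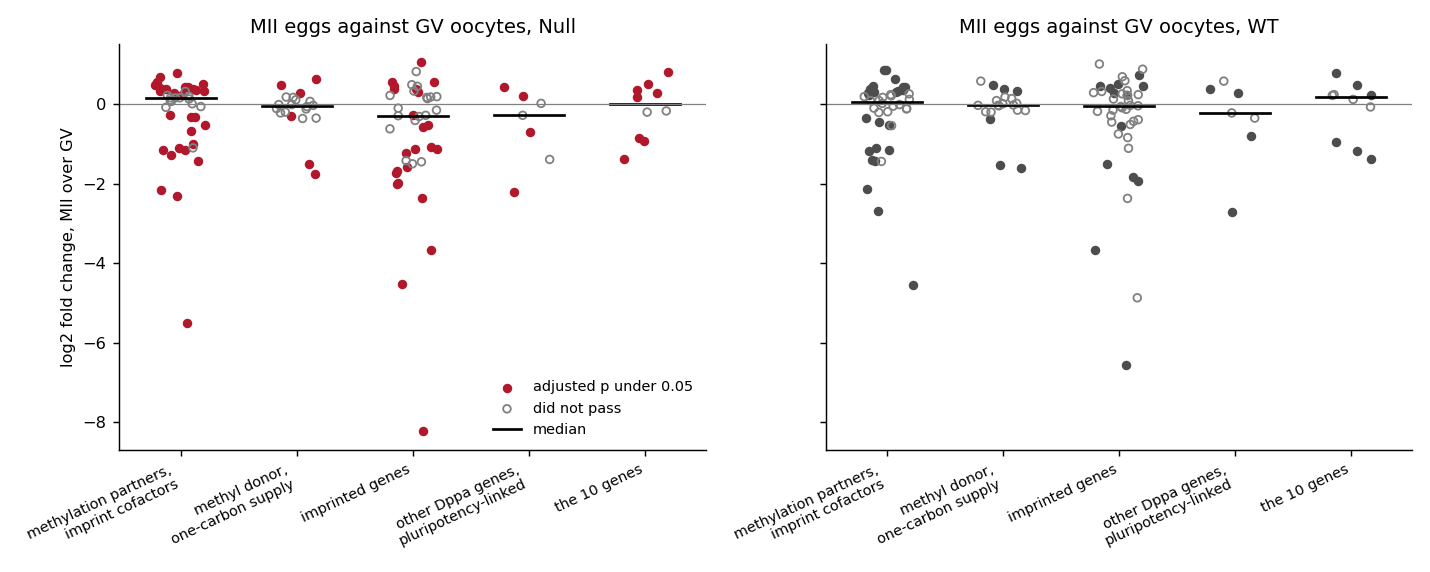
Log2 fold change of MII eggs over GV oocytes for the tested genes of 4 lists and for the 10 genes, in Null (left panel, red) and WT (right panel, grey), with filled points for an adjusted p under 0.05, open points otherwise and black lines for medians. Genes of each list lie on both sides of 0, and the median of imprinted genes is -0.30 in Null and -0.05 in WT.

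Imprinted genes, some of which lie under marks that Dnmt3a and Dnmt3l set and Zfp57 guards, were taken from 52 names. Of these 51 were in the table and 42 were tested. In MII eggs of Null, 7 rose and 16 fell relative to GV oocytes (median log2 fold change -0.30), and in WT 7 rose and 6 fell (median -0.05), beside 49.0% of all genes called in Null and 42.7% in WT. With GV Null replicate 1 as the lone GV Null library, 6 rose and 4 fell of 44 tested in Null (median -0.06), beside 26.1% of all genes called, so the count that fell in Null is not kept without GV Null replicates 2 and 3, in a fit with fewer libraries. Between Null and WT no imprinted gene passed at either stage, beside 0.0546% of all genes at each. An unadjusted p under 0.05 was found for 3 of 42 in MII eggs (1 higher and 2 lower in Null). In GV oocytes it was found for 8, all higher in Null. Over all genes 6.35% had such a p in MII eggs and 6.66% in GV oocytes. With GV Null replicate 1 as the lone GV Null library, 22 of 44 had a Null over WT value above 0 in GV oocytes. Their median log2 fold change was -0.0 in that fit, against 0.0 over all genes. With all libraries 26 of 42 lay above 0, with a median of 0.1, against 0.02 over all genes. The excess of higher values in GV Null is thus not kept without GV Null replicates 2 and 3. The high sums of cumulus genes are those of GV Null replicates 2 and 3, and the part of somatic RNA was not tested. Mest, a paternally expressed gene methylated on the egg's allele, rose by 0.45 in Null and 0.51 in WT. Blcap rose by 0.56 in Null and 0.45 in WT. Kcnq1 rose by 0.55 in Null and 0.41 in WT, Snrpn by 0.74 in WT and Slc22a3 by 1.05 in Null. Commd1 changed by -1.72 in Null and -1.84 in WT, and Igf2r by -0.55 in WT. In the other genotype Snrpn averaged 7.54 CPM in MII Null and 5.99 CPM in GV Null. Slc22a3 averaged 5.42 CPM in MII WT and 3.98 CPM in GV WT. Igf2r averaged 67.5 CPM in MII Null and 96.8 CPM in GV Null. The difference between genotypes passed for no imprinted gene. Meg3 had -1.08 in Null and -0.43 in WT, Peg10 -1.14 in Null and -0.13 in WT, and Plagl1 -0.57 in Null and -0.03 in WT, with at most 15.5 CPM in the higher group, and none of the 3 passed in WT. Peg10 in Null had 3.12, 4.34, 4.99 and 6.40 CPM in MII eggs, against 6.11, 13.2 and 11.8 CPM in GV oocytes. None of the 3 passed in Null once GV Null replicate 1 was the lone GV Null library, at -0.78 for Meg3 (adjusted p = 0.0624), -0.38 for Peg10 (0.371) and -0.37 for Plagl1 (0.231). These are total counts per gene, and no value here separates the parental alleles.

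The genes whose pattern over the 13 libraries was most like that of a member are given as a description, since the step between the stages sets most of each correlation. Over 8668 genes of at least 5 CPM, Pearson's r of log2 CPM with Dnmt1 was 0.992 for Lzic, Tsnax and Psma3. For Dnmt3l it was 0.988 for Gpn1, 0.986 for Psmd6 and 0.985 for Arl4a. For Tet3 it was 0.993 for Rbm27, 0.992 for Peak1 and 0.991 for Ptpn21. For Dppa3 it was 0.994 for Ebpl and Ccdc58 and 0.993 for Zar1l, whose level was 65.4 CPM in MII Null, 65.0 CPM in MII WT, 124 CPM in GV Null and 135 CPM in GV WT. The points share their libraries and the scaling.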

How the data were processed

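Raw, unscaled counts per gene were deposited, made by the authors with STAR 2.5.3a and bedtools 2.26.0 on mm10 (GRCm38.p6), per the submitters' processing notes, for genes of Ensembl release 93 per the file header. Per the labels' protocols, RNA of 25 cells with 0.2 pg of Renilla luciferase mRNA was amplified with the Ovation V2 system and read as 65-base single ends. How reads were assigned to genes (tool, strand, multiply mapped reads) is not stated. The count table has 0 rows outside genes, so spike-in scaling was not possible. Symbols came from a name table that matched 54079 of 54232 IDs.

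All 13 libraries entered 1 edgeR 4.0.16 model (R 4.3.3) with 4 groups, TMM scaling and filterByExpr by group, tested two-sided with glmQLFit (robust) and glmQLFTest in 5 comparisons. Adjusted p values are Benjamini-Hochberg values over 20143 genes within a comparison, with a threshold of 0.05. Levels are TMM-scaled CPM, given as mean ± SD over libraries, and 95% intervals come from the t quantile of the fit. Reads carry no molecular identifiers, so the limit of 3 counts covers counting error alone. Replicate numbers of the labels did not pair the samples. Counts of replicates differed beyond sampling noise in every pair (chi-square per degree of freedom 5.37 to 38.3), so no library was counted as a duplicate. The tests were run on simulated counts of the same 20143 genes, with a small set changed and the rest held flat. The changed set was drawn only from genes with a mean above 1 CPM, and the spread of each gene was that of the fit. Changes of 2-fold were found in 71.2% of cases for Null against WT in MII eggs and 69.6% in GV oocytes. For MII against GV they were found in 76.4% in Null and 69.1% in WT. Changes of 1.5-fold were found in 45.9%, 56.7%, 61.5% and 47.2% of cases in that order, and in 28.2% for the difference between stages. The data hold many more called genes between stages and fewer between genotypes, so these shares need not carry over. Alternatives were DESeq2 1.42.0, RLE scaling, other filters, a minimum fold of 1.5, the groups compared alone, a replicate block and leaving out libraries. Promoter sequences and gene spans are from RefSeq (GRCm38.p6), matched by symbol. The members and the gene lists were chosen with earlier results of these data known. Named are the 10 genes, their annotated relatives, and from each list all genes that passed where 8 or fewer did, otherwise the 4 per direction with the smallest p and at least 5 CPM, with Uhrf2, Trim28, Zfp445, Setdb1 and Kdm1b added.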

Additional observations from a re-analysis of the deposited data

How the results depend on the processing

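Dnmt1, Dnmt3l, Dppa3 and Zfp57 passed between MII eggs and GV oocytes in both genotypes under all 21 alternatives run, and no log2 fold change of a called member reversed. Over them the log2 fold change ran, in Null and in WT, from -1.01 to -0.81 and -1.08 to -0.88 for Dnmt1, -1.12 to -0.82 and -1.30 to -1.07 for Dnmt3l, -1.53 to -1.29 and -1.52 to -1.33 for Dppa3, and 0.64 to 0.87 and 0.65 to 0.80 for Zfp57. Tet3 was lost only with a minimum fold of 1.5, in both genotypes. In Null the number of members called was 8, against 5 with a minimum of 5 CPM, 4 with a minimum fold of 1.5 (Dnmt1, Dnmt3l, Dppa3 and Zfp57) and 5 with GV Null replicate 1 as the lone GV Null library. That lone library is assumed to vary like the other groups. The minimum of 5 CPM shifted the median log2 fold change of all shared genes by -0.15 in Null and -0.14 in WT. Uhrf1, Dnmt3a and Dnmt3b were the members whose call moved with single libraries. With the replicate number as a block, 8 members passed in Null and 6 in WT from GV to MII and 0 between genotypes, but same-numbered samples did not deviate together (correlations -0.202 to 0.216, against -0.295 to 0.261 for different numbers), and MII Null replicate 4 stands alone in its block. No member passed between Null and WT, or in the difference between stages, under any alternative.

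Over all genes, calls between Null and WT depended strongly on the settings. In MII eggs 11 genes passed, against 41 by DESeq2, 290 with no filter, 7 with a minimum of 5 CPM, 2 with a minimum fold of 1.5 and 4 to 12 on leaving out a library (7 without MII Null replicate 1, and for MII WT 4 when replicate 1 or 2 was dropped and 6 when replicate 3 was). In GV oocytes 11 passed, against 27 by DESeq2, 644 with no filter, 3 with a minimum fold of 1.5, 1 with the lone GV Null library and 6 to 139 on leaving out a library (139 without GV Null replicate 1, 6 without GV Null replicate 3 or GV WT replicate 1 or 2). The difference between stages called 1, against 2 by DESeq2, 157 with no filter and 0 or 1 otherwise. From GV to MII, 9867 genes passed in Null, against 3230 with a minimum fold of 1.5, 5843 with a minimum of 5 CPM and 5672 with the lone GV Null library. In WT 8609 passed, against 2707 and 5355 under those first 2 settings. The cause of these moves was not tested. A planned ordering of genes per kilobase was not run, because transcript lengths were not used here. The lowest count of a member in a library was 262, so counting error was small for all 10.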

Other observations

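Transcripts of genes of one-carbon metabolism and methyl donor supply went in both directions. Of 23 listed genes of one-carbon metabolism 20 were tested, and from GV to MII 3 rose and 3 fell in each genotype, beside 49.0% of all genes called in Null and 42.7% in WT. With GV Null replicate 1 as the lone GV Null library, 2 rose and 1 fell in Null, beside 26.1% of all genes, and Mtr (0.06), Mat1a and Gnmt did not pass. Tyms, thymidylate synthase, had a log2 fold change of -1.50 in Null (adjusted p = 4.02e-09) and -1.52 in WT (adjusted p = 1.44e-08). Mthfd2 and Shmt2, the mitochondrial folate enzymes, rose by 0.63 and 0.47 in Null and by 0.49 and 0.38 in WT. Mtr, methionine synthase, rose by 0.29 in Null and 0.33 in WT. Mat1a, which makes S-adenosylmethionine, had -0.31 in Null and -0.37 in WT. The related Mat2a had 0.11 in Null and 0.14 in WT, Mat2b -0.01 in Null and -0.03 in WT, and neither passed. Gnmt had -1.75 in Null and -1.60 in WT, at under 1 CPM in either stage. No gene of this list passed between Null and WT, beside 0.0546% of all genes at each stage.

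Among 8 genes that share the Dppa name or are linked to pluripotency 7 were tested, and 2 rose and 2 fell from GV to MII in each genotype, beside 49.0% of all genes called in Null and 42.7% in WT. With the lone GV Null library 1 rose and 2 fell in Null, and Sall4 did not pass. Dppa5a, a KH-domain protein, had the largest change, with a log2 fold change of -2.21 in Null (adjusted p = 0.000166) and -2.70 in WT (adjusted p = 0.00012). Dppa4 had -0.71 in Null (-1.28 with the lone GV Null library) and -0.79 in WT, at no more than 2.77 CPM in the higher stage. Dppa2 rose by 0.42 in Null and 0.39 in WT, and Sall4, a zinc finger factor needed in mouse oocytes, by 0.20 in Null and 0.29 in WT.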
